A study of Arabidopsis thaliana with 22 samples.

Results

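The inverted repeats of the Arabidopsis thaliana plastid genome hold 5 transfer RNA (tRNA) genes shorter than 100 bp. They are trnI (ArthCt113, 74 bp), trnL (ArthCt126, 81 bp), trnV (Arthct121, 72 bp), trnR (ArthCt127, 74 bp) and trnN (Arthct120, 72 bp). All tRNA genes under that length in the first repeat were taken, and each was summed with its mirror copy in the second repeat. These 5 were among 30 tRNA genes and 112 plastid genes analysed in all. The rule used only length and place, and the choice was made with earlier results of these data known. The repeat tRNA genes on the far side of the length limit were the intron-bearing trnI (ArthCt107, 801 bp) and trnA (ArthCt108, 874 bp). From here on trnI means the short gene ArthCt113 unless its identifier is given.

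Plastids keep their own translation machinery, and the plastid genome supplies the tRNAs for it. Each member encodes a tRNA for 1 amino acid, namely isoleucine for trnI, leucine for trnL, valine for trnV, arginine for trnR and asparagine for trnN. In plant plastids the intronless isoleucine tRNA is known for a modified anticodon base that lets it read the isoleucine codon AUA, and the arginine tRNA for an inosine that lets it read several arginine codons. In the repeat, trnV lies ahead of the ribosomal RNA (rRNA) operon, and trnR and trnN follow it. In leaf chloroplasts the plastid DNA is packed with protein and RNA into nucleoids.

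The assay was ptATAC-seq, in which the transposase Tn5 inserts adapters into plastid DNA and insertions are counted at each position, so protein on the DNA can lower the count. The series compared 2 fractions of leaf plastid DNA from wild-type plants of the ecotype Col0, labelled Nucleoid and Naked, with 11 numbered replicates each. Plants of both fractions were 14 days old and grew at 22 ºC with 16 h of light and 8 h of dark, and the protocol text, identical for both fractions, has the isolated chloroplasts fixed in 4% formaldehyde for 4 h. The labels do not say how the naked DNA was made, nor that replicates came from separate plants, so p-values measure the spread between these libraries only.

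Replicates 9 and 10 of the Nucleoid fraction were identical over the 154477 positions and were used once, which left 10 Nucleoid and 11 Naked libraries. Total counts ran from 202725 to 1813905 in Nucleoid libraries (median 1158972) and from 105763 to 1195649 in Naked libraries (median 527624), so depth differed between the fractions. Naked replicates 9, 10 and 11 gave the 3 highest signals of the Naked fraction at all 5 genes, at trnL only narrowly (163 against 160 in the next library). Nucleoid replicate 11, the shallowest of its fraction, was the highest Nucleoid library at 4 of the 5 genes, and Nucleoid replicate 6, the deepest, was the lowest at all 5. The thinnest data on a gene were 294 counts on trnL in Nucleoid replicate 11 and 157 counts on trnN in Naked replicate 6. If every count were an independent insertion, counting error would be 8.0% of the signal at the lowest counts, and kept PCR duplicates would make it larger.

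Relative to the genome mean, 4 of the 5 short repeat tRNA genes had a lower insertion signal in nucleoids than in naked DNA, and the fifth did not pass the test. Signal here is the mean count per position over both copies of a gene, given in percent of that library's own mean per plastid position, which is therefore 100. Across all 112 genes, 24.1% were lower in the Nucleoid fraction (adjusted p under 0.05, limma on the log2 of signal plus 1, Benjamini-Hochberg adjustment over all genes), and 9.82% were higher. The lower members were trnI, trnL, trnR and trnN, and trnV missed the threshold. Each of the 5 genes had a mean signal above the genome mean in both fractions.

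The gene trnR, for the arginine tRNA, had the widest gap of the 5. Its signal was 103 at the lowest, 140 at the median and 214 at the highest in Nucleoid libraries, against 148, 231 and 397 in Naked libraries. The lowest Naked library lay above 6 of the 10 Nucleoid libraries, and Nucleoid replicate 11 reached furthest into the Naked range. The log2 difference between Nucleoid and Naked was -0.72 ± 0.16 (SE, adjusted p = 0.00256), with a 95% interval from -1.05 to -0.38. Without Naked replicates 9, 10 and 11 it was -0.51 (adjusted p = 0.0107).

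The gene trnN, for the asparagine tRNA, lies 637 bp further along on the higher-position side of trnR in the first repeat copy. Its signal was 108, 136 and 187 (lowest, median, highest) in Nucleoid libraries and 142, 177 and 252 in Naked libraries. Of the Nucleoid libraries, 7 of 10 fell below every Naked library. The log2 difference was -0.42 ± 0.11 (SE, adjusted p = 0.00638), and it was -0.28 (adjusted p = 0.0282) without Naked replicates 9, 10 and 11. With the counts of the first repeat copy alone it no longer passed (-0.35, adjusted p = 0.0793).

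The leucine tRNA gene trnL separated the fractions most cleanly. Its signal was 105, 121 and 139 in Nucleoid libraries, and 139, 153 and 209 in Naked libraries. Only 1 Nucleoid library, replicate 3, reached the level of the lowest Naked library. The difference was -0.37 ± 0.07 (SE, adjusted p = 0.000572), the smallest adjusted p of the 5 genes, and it stood at -0.29 (adjusted p = 0.00123) without Naked replicates 9, 10 and 11.

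The isoleucine tRNA gene trnI and the valine tRNA gene trnV gave smaller differences. For trnI the signal was 112, 126 and 165 in Nucleoid libraries and 127, 153 and 196 in Naked libraries. The groups overlapped, with 6 of 10 Nucleoid libraries under the lowest Naked one. The log2 difference was -0.29 ± 0.09 (SE, adjusted p = 0.0156) and no longer passed without Naked replicates 9, 10 and 11 (-0.17, adjusted p = 0.0784), nor with depth in the model (-0.15, adjusted p = 0.109).

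For trnV the signal was 143, 164 and 240 in Nucleoid libraries and 159, 192 and 313 in Naked libraries. Here 4 of 10 Nucleoid libraries lay under every Naked library, and Nucleoid replicate 11 exceeded all but 3 of the Naked ones. The difference of -0.28 ± 0.12 (SE) did not pass (adjusted p = 0.0806), and its 95% interval ran from -0.52 to -0.03. It passed when Nucleoid replicate 11 (adjusted p = 0.0279), Naked replicate 1 (adjusted p = 0.0484) or Naked replicate 3 (adjusted p = 0.0438) was left out alone.

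**Figure D1:**
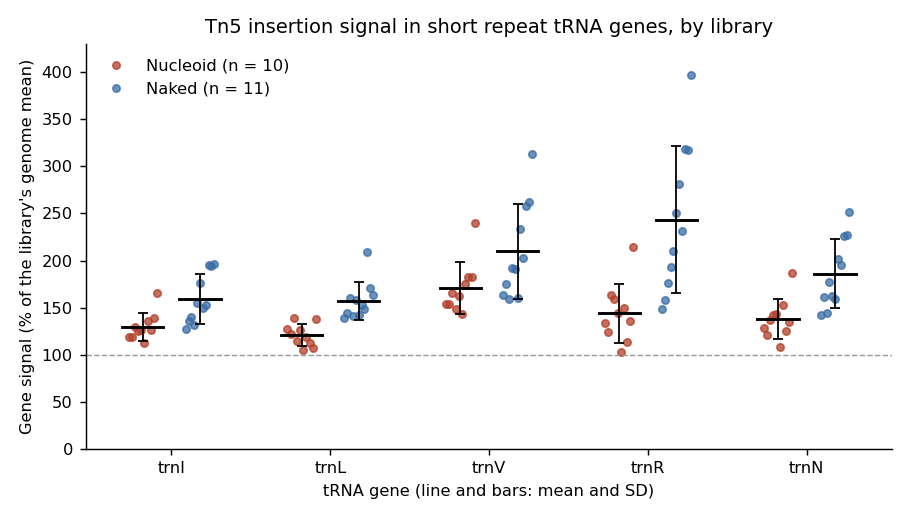
Signal of each short repeat tRNA gene in every library, as a percent of that library's genome mean (dashed line at 100), with 10 Nucleoid libraries left of 11 Naked libraries for each gene; lines and bars give the mean and SD. For trnR the means were 144 in Nucleoid and 243 in Naked libraries, and the Naked libraries spread from 148 to 397.

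With depth as a term in the model, trnL (-0.36, adjusted p = 0.00257), trnR (-0.50, adjusted p = 0.0184) and trnN (-0.29, adjusted p = 0.0481) stayed past the threshold. In the 8 Nucleoid and 5 Naked libraries of more than 600000 counts, the same 3 genes passed, trnR and trnN only just. The log2 differences were -0.30 for trnL (adjusted p = 0.00812), -0.38 for trnR (adjusted p = 0.0442) and -0.25 for trnN (adjusted p = 0.0492). These differences are relative to the genome mean, and the median over all 112 genes was 0.10. When each library was scaled to its median window instead, that median became -0.05 and the genes past the threshold were 30 lower and 1 higher, against 27 lower and 11 higher with the genome mean. Scaling to the mean of the repeat gave a median of 0.22 with 19 lower and 13 higher. All 5 short repeat tRNA genes kept their direction under both scalings, but the sizes changed. Scaled to the repeat mean, trnR differed by -0.59, trnN by -0.30, trnL by -0.25, trnI by -0.16 and trnV by -0.15. Scaled to the median window, the values were -0.87, -0.57, -0.52, -0.44 and -0.43 in the same order. With the genome mean and relative to the median gene, trnR stood at -0.82, trnN at -0.52, trnL at -0.47, trnI at -0.39 and trnV at -0.38 on the log2 scale.

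Each gene was next compared with its own surroundings, the 200 bp on either side. In naked DNA all 5 genes stood above their flanks, as did 85.7% of all genes. In nucleoids only trnV and trnR stood above their flanks by the same test, against 77.7% of all genes. For trnI, trnL and trnN the Nucleoid gene signal was close to that of the flanking DNA. The gene-to-flank ratio, on the log2 scale, was lower in nucleoids for 4 of the 5 genes, and it was lower for 41.1% and higher for 2.68% of all 112 genes.

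For trnN the ratio was -0.25, 0.07 and 0.29 (lowest, median, highest) in Nucleoid libraries and 0.23, 0.32 and 0.64 in Naked libraries. All but the Nucleoid replicate 11 lay below every Naked library. The mean was 0.03 in Nucleoid libraries (adjusted p = 0.613 against its flanks) and 0.36 in Naked libraries, a difference of -0.33 ± 0.07 (SE, adjusted p = 0.00119). The flank signal at trnN averaged 135 ± 12.8 in Nucleoid and 144 ± 21.3 in Naked libraries (SD, n = 10 and 11), a log2 difference of -0.09 (adjusted p = 0.341). With the first repeat copy alone the ratio difference no longer passed (-0.23, adjusted p = 0.0988).

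For trnL the ratio was -0.15, 0.14 and 0.27 in Nucleoid libraries and 0.16, 0.39 and 0.70 in Naked libraries. The groups overlapped in a few libraries, and 6 of 10 Nucleoid libraries lay below every Naked one. The difference was -0.29 ± 0.07 (SE, adjusted p = 0.00393), while the flanks themselves differed by -0.08 (adjusted p = 0.327). The Nucleoid mean of 0.09 did not differ from 0 by the test (adjusted p = 0.102).

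For trnI the ratio was -0.08, 0.09 and 0.50 in Nucleoid libraries and 0.11, 0.42 and 0.96 in Naked libraries. The 0.50 came from Nucleoid replicate 11, and 5 of 10 Nucleoid libraries were below every Naked one. The difference was -0.35 ± 0.09 (SE, adjusted p = 0.00657), and the flanks differed by 0.07 (adjusted p = 0.327). The ratio difference was -0.21 with depth in the model (adjusted p = 0.0351) and -0.21 in the libraries of more than 600000 counts (adjusted p = 0.0422). In nucleoids the mean was 0.11 (adjusted p = 0.125 against the flanks). Of the flank positions of trnI, 36.0% fall within the neighbouring genes rpl23 and ycf2, whereas the flanks of the other 4 genes hold no annotated gene.

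For trnR the ratio was 0.23, 0.56 and 1.06 in Nucleoid libraries and 0.54, 0.86 and 1.39 in Naked libraries. It was above 0 in every library of both fractions, and 5 of 10 Nucleoid libraries were below every Naked one. The difference was -0.33 ± 0.10 (SE, adjusted p = 0.0164). It no longer passed without Naked replicates 9, 10 and 11 (-0.24, adjusted p = 0.07), with depth in the model (-0.19, adjusted p = 0.125) or with flanks of 100 bp (-0.16, adjusted p = 0.0622).

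For trnV the ratio was 0.38, 0.50 and 0.70 in Nucleoid libraries and 0.31, 0.54 and 0.92 in Naked libraries. The groups overlapped throughout, and no Nucleoid library was below every Naked one. The difference was -0.07 ± 0.06 (SE, adjusted p = 0.347), with a 95% interval from -0.19 to 0.06. At trnV the flank signal was 119 ± 13.3 in Nucleoid and 139 ± 21 in Naked libraries (SD, n = 10 and 11), a log2 difference of -0.21 (adjusted p = 0.0518). This flank difference passed when Nucleoid replicate 11 or any 1 of Naked replicates 1, 2, 3 and 4 was left out (adjusted p from 0.023 to 0.0439).

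**Figure D2:**
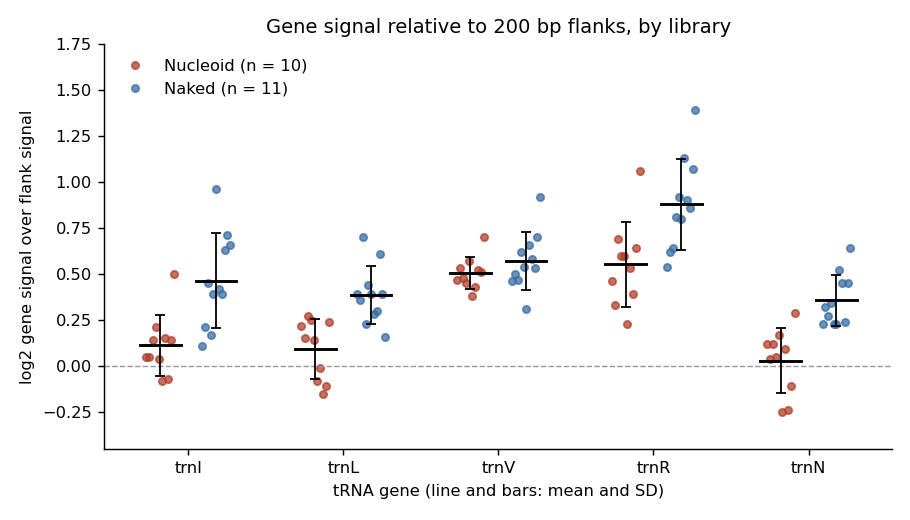
The log2 ratio of gene signal to the signal of the 200 bp flanks in every library, Nucleoid left of Naked for each gene; lines and bars give the mean and SD, and the dashed line marks equal signal in gene and flanks. Nucleoid libraries of trnI, trnL and trnN scatter around the line, with means of 0.11, 0.09 and 0.03, while those of trnV and trnR lie above it in all 10 libraries.

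Of the 5 pairs of flanks, those of trnR were lower in nucleoids by the same test across 112 genes, where 9.82% of genes had lower and 24.1% had higher flanks. The trnR flank signal was 96.1 ± 7.02 in Nucleoid and 128 ± 23.8 in Naked libraries (SD, n = 10 and 11), a log2 difference of -0.39 ± 0.09 (SE, adjusted p = 0.0098). At trnR both the gene and its surroundings were lower, and 7 of 10 Nucleoid libraries had a lower flank signal than every Naked library. It stood at -0.27 (adjusted p = 0.0191) without Naked replicates 9, 10 and 11. With depth in the model the trnR flanks no longer passed (-0.31, adjusted p = 0.0623), nor in the libraries of more than 600000 counts (-0.15, adjusted p = 0.168).

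Windows of 50 bp along the repeat gave a closer view of where the signal was lower. Of 2556 windows tested over the plastid genome, 9.66% were lower and 17.3% were higher in nucleoids. Of the 14 windows that overlapped a short repeat tRNA gene, 7 were lower and 0 were higher by limma (0 also at an unadjusted p under 0.05). Any overlap counted, from 4 bp to all 50 bp, so some of these windows, lower ones included, lay mostly in the flank. Of the 40 windows in the flanks, 10 were lower and 5 were higher. The 17 windows lower in gene or flank became 13 without Naked replicates 9, 10 and 11, 10 with depth in the model and 4 in the libraries of more than 600000 counts.

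At trnR the lower windows ran through the gene without a break. From position 108172 to 108471, 6 consecutive windows were lower, with log2 differences between -0.92 and -0.43. The widest difference lay where 4 bp of the gene end and its higher-position flank begins, from 108372 to 108421, with a signal of 97.8 ± 19.3 in Nucleoid and 190 ± 53.4 in Naked libraries (SD, n = 10 and 11; adjusted p = 0.00121).

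At trnI the lower windows were those that straddled the ends of the gene. Of its 3 gene windows 2 were lower, with differences of -0.33 and -0.26, and these held only 10 bp and 14 bp of the gene. The third, the only window wholly within the gene, gave -0.22 and did not pass (adjusted p = 0.0959). The 8 flank windows all had positive differences, from 0.11 to 0.36, and 3 of them passed as higher in nucleoids. The nearest of these to the gene ran from 86422 to 86471, with a signal of 81.4 ± 6.62 in Nucleoid and 66.9 ± 6.89 in Naked libraries (SD, n = 10 and 11; log2 difference 0.28, adjusted p = 0.0118).

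At trnV none of the 3 gene windows passed, while 3 flank windows were lower and 1 was higher. Of the lower ones, 2 lay between trnV and rrn16S, the gene of the small ribosomal subunit's rRNA, which starts 231 bp from trnV. The window from 100872 to 100921 had a signal of 126 ± 18.4 in Nucleoid and 193 ± 39.9 in Naked libraries (SD, n = 10 and 11), a log2 difference of -0.60 (adjusted p = 0.00198), and its neighbour towards trnV gave -0.43 (adjusted p = 0.0108). On the other side of trnV, the window from 100572 to 100621 was lower (-0.23, adjusted p = 0.0198) and the one from 100522 to 100571 was higher (0.26, adjusted p = 0.0313). The spacer between trnV and rrn16S is known to hold promoters of the rRNA operon.

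At trnL and trnN the pattern was broken into single windows. The window that covered most of trnL differed by -0.35 (adjusted p = 0.00416), and a window in its lower-position flank, from 94172 to 94221, by -0.51 (adjusted p = 0.00291). The far flank of trnL, from 94522 to 94571, held the most raised window of the set, with 90.6 ± 15.8 in Nucleoid and 54.5 ± 11.7 in Naked libraries (SD, n = 10 and 11; log2 difference 0.73, adjusted p = 0.00121). At trnN the window within the gene differed by -0.43 (adjusted p = 0.0152), and 2 flank windows, 1 on each side, gave -0.41 and -0.46.

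**Figure D3:**
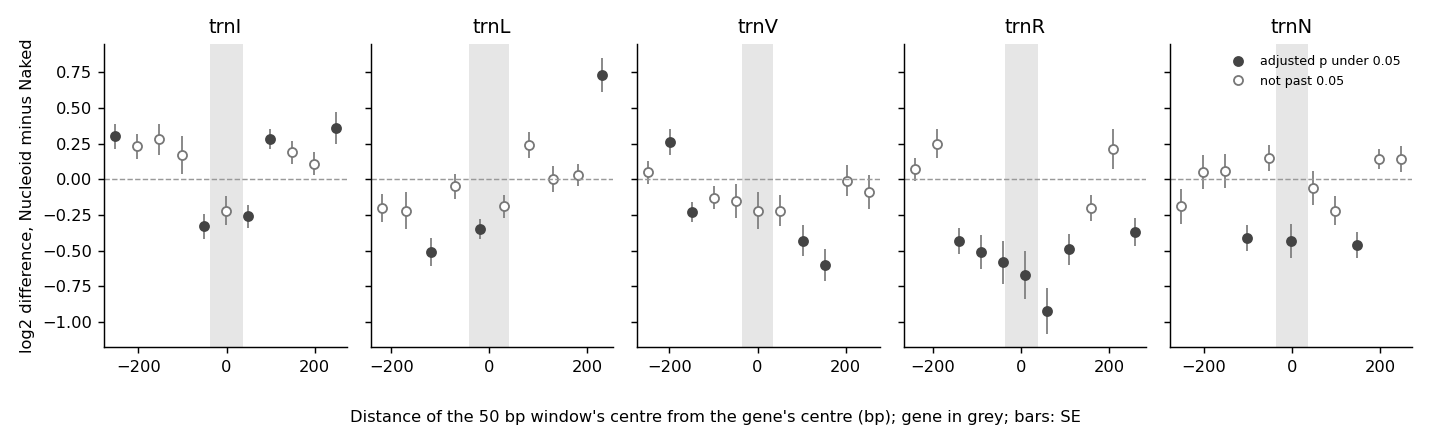
Log2 difference in signal, Nucleoid minus Naked, of each 50 bp window against its distance from the gene's centre in bp, with SE bars; filled points passed an adjusted p of 0.05 and the gene is grey. Filled points run through trnR and on both sides of it. At trnI they are below 0 in the windows across the gene's ends and above 0 further out, and the window within the gene is not filled.

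**Figure D4:**
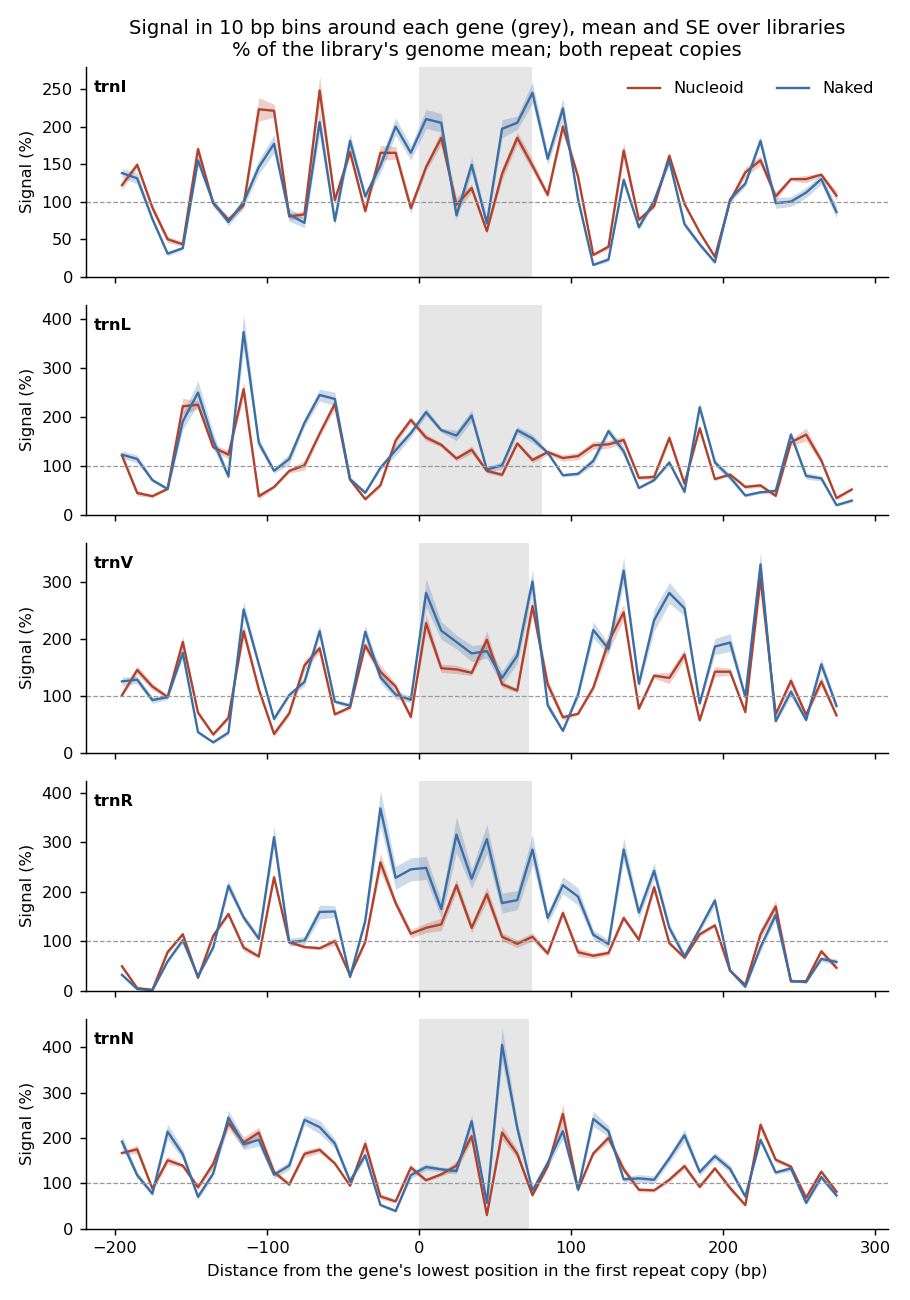
Signal in 10 bp bins from 200 bp before to 200 bp after each gene (grey), as the mean and SE over 10 Nucleoid and 11 Naked libraries, plotted by distance in bp from the gene's lowest position in the first repeat copy. Most peaks and troughs fall at the same bins in both fractions, and the Nucleoid line runs below the Naked line over much of trnR.

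Insertions were spread unevenly within each gene, with similar profiles in both fractions. Across the positions of a gene, the mean Nucleoid and mean Naked profiles had Pearson's r from 0.950 for trnR to 0.978 for trnV (72 to 81 positions, which share libraries and DNA sequence). The 5 positions most used in naked DNA took 37.0% of the insertions in trnN in Nucleoid libraries and 39.8% in Naked libraries, against 6.94% if all positions were used equally. Because the positions were picked from the Naked profile, the choice itself favours the Naked share. The most used position of trnN, 109066, held 11.8 ± 1.62% of the gene's insertions in Nucleoid and 16.7 ± 4.44% in Naked libraries (SD, n = 10 and 11). In trnL and trnV as well, the most used position was the same in both fractions, and in trnI and trnR it was not.

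The size of the difference was compared between the genes. For each library the log2 signals of 2 genes were subtracted, and the result was compared between fractions by a permutation test (two-sided, 100000 resamples) for all 10 pairs, with Benjamini-Hochberg adjustment over them. Of the 10 pairs, 5 passed, and 4 of these involved trnR. Relative to trnR, trnI was higher in nucleoids by 0.43 ± 0.10 (SE, adjusted p = 0.0022), trnV by 0.44 ± 0.10 (adjusted p = 0.0022) and trnL by 0.34 ± 0.13 (adjusted p = 0.0387). The difference of trnR minus trnN was 0.05 in Nucleoid and 0.35 in Naked libraries, a change of -0.30 ± 0.08 (adjusted p = 0.0072), and the value was under the Naked median in all 10 Nucleoid libraries. The fifth pair was trnV and trnN (0.14 ± 0.05, adjusted p = 0.0267). Without Naked replicates 9, 10 and 11, 4 pairs passed, and in the libraries of more than 600000 counts 0 of 10 passed by the permutation test (2 at an unadjusted p under 0.05), with a lowest adjusted p of 0.171.

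The order of the genes by signal differed between the fractions in the places of trnV and trnR, the pair whose difference gave 0.44 above. In nucleoids the order was trnV, trnR, trnN, trnI and trnL. Of these neighbours in the order only trnV and trnR differed beyond their spread (log2 difference 0.26 ± 0.23, SD, higher in 9 of 10 libraries, adjusted p = 0.0156, exact sign-flip test, two-sided, adjusted over 8 tests). In naked DNA the order was trnR, trnV, trnN, trnI and trnL. There trnR exceeded trnV by 0.18 ± 0.23 (SD, 9 of 11 libraries, exact test, adjusted p = 0.043), trnV exceeded trnN in all 11 libraries (0.16 ± 0.09, exact test, adjusted p = 0.00781), and trnN exceeded trnI in 10 of 11 (0.22 ± 0.18, exact test, adjusted p = 0.0156). The libraries with trnR below trnV were Naked replicates 1 (148 against 163) and 2 (158 against 175), the deepest of the fraction. The neighbours trnI and trnL did not pass in naked DNA (0.01 ± 0.16, exact test, adjusted p = 0.812). Among all 112 genes by mean log2 signal, trnV ranked 2, trnR 8, trnN 11, trnI 16 and trnL 31 in nucleoids, and trnR ranked 1, trnV 5, trnN 8, trnI 13 and trnL 15 in naked DNA. The orders and ranks were not tested for depth or without Naked replicates 9, 10 and 11.

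The genes beside the short repeat tRNA genes differed in direction along the repeat. On the protein-coding side, trnI lies between rpl23, for a protein of the large ribosomal subunit, and ycf2, a long reading frame. For rpl23 the log2 difference was 0.12 (adjusted p = 0.099), and ycf2 was higher in nucleoids by 0.24 (adjusted p = 0.0215). Beyond ycf2, trnL precedes ndhB, which encodes a subunit of the plastid NDH complex and was higher in nucleoids by 0.17 (adjusted p = 0.0198).

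The rRNA genes next to trnV and trnR were lower. The log2 difference was -0.50 for rrn16S (adjusted p = 0.0198), the neighbour of trnV, and -0.50 for ArthCr091 (adjusted p = 0.00638). ArthCr091 is an rRNA gene 232 bp from trnR, and its counts were summed over both copies. The nearest protein-coding genes analysed on the outer sides did not pass. They were rps7, for a small-subunit ribosomal protein, beside trnV (-0.10, adjusted p = 0.142) and ndhF, for an NDH subunit, beside trnN (0.40, adjusted p = 0.0942). A ycf1 fragment in the first repeat was left out, and the full ycf1, also a long reading frame, gave 0.49 (adjusted p = 0.0698). The intron-bearing trnA (ArthCt108), which lies within the operon, was lower, with a signal of 151 ± 24.7 in Nucleoid and 202 ± 51.8 in Naked libraries (SD, n = 10 and 11; -0.39, adjusted p = 0.0198). The intron-bearing trnI (ArthCt107) had 143 ± 24.6 in Nucleoid and 179 ± 53.5 in Naked libraries (-0.29, adjusted p = 0.101). For neither of these 2 longer genes did the gene-to-flank ratio pass (0.16 for trnI (ArthCt107), adjusted p = 0.0767, and -0.10 for trnA, adjusted p = 0.0749).

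From library to library, the closest match of each of the 3 short tRNA genes beside the operon was an rRNA gene. After the fraction means were subtracted, the gene most like trnR over 21 libraries was rrn23S (Pearson's r = 0.980 of log2 signal), followed by rrn16S (r = 0.973) and trnA (r = 0.956). The gene most like both trnV (r = 0.970) and trnN (r = 0.955) was rrn4.5S. Next came psbE, for a photosystem II protein (r = 0.938), and the intron-bearing trnI (ArthCt107; r = 0.930) for trnV, and trnA (r = 0.953) and rrn23S (r = 0.936) for trnN. For trnI the closest were trnE, ArthCr091 and trnA (r from 0.908 to 0.948). For trnL they were rps12, rps7 and petD, with lower values (r from 0.724 to 0.852). Among the 5 genes themselves r ran from 0.541 for trnL and trnV to 0.917 for trnR and trnN. These libraries share depth and the libraries that stood apart, so the values are a description.

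The 5 genes were set beside the other kinds of plastid gene. Of 19 other short tRNA genes, those outside the repeats, 12 were lower and 0 were higher in nucleoids by limma (1 higher at an unadjusted p under 0.05), with a median log2 difference of -0.42, against 4 lower of 5 and a median of -0.37 for the short repeat tRNA genes. The other short tRNA genes ran from -0.96 for trnQ, for a glutamine tRNA (adjusted p = 9.07e-05), to 0.25 for trnW, for the tryptophan tRNA (adjusted p = 0.386). Of 6 tRNA genes of 100 bp or more 1 was lower (trnA), with a median of 0.06, and the highest value was 0.49 for trnK (adjusted p = 0.114). Of 4 rRNA genes 3 were lower (median -0.50), from rrn23S (-0.51) to rrn4.5S (-0.32, adjusted p = 0.0942). Of 78 protein-coding genes 7 were lower and 11 higher (median 0.16), from rps12 (-0.41, adjusted p = 0.000892) to rps15 (0.93, adjusted p = 0.101), both for proteins of the small ribosomal subunit. The median over all 112 genes was 0.10.

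By the gene-to-flank ratio, 14 of the 19 other short tRNA genes were lower in nucleoids (median -0.37), the lowest being trnC, for a cysteine tRNA, at -1.03 (adjusted p = 1.05e-05). The short repeat tRNA genes had 4 of 5 lower and a median of -0.33. Of the tRNA genes of 100 bp or more 0 of 6 were lower by limma (1 at an unadjusted p under 0.05), of the rRNA genes 1 of 4 and of the protein-coding genes 27 of 78, and the median over all genes was -0.17. Within nucleoids, 14 of the 19 other short tRNA genes still stood above their flanks, against 2 of the 5 in the repeats. Within naked DNA the counts were 17 of 19 and 5 of 5. The difference between these 2 sets of tRNA genes was not tested.

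**Figure D5:**
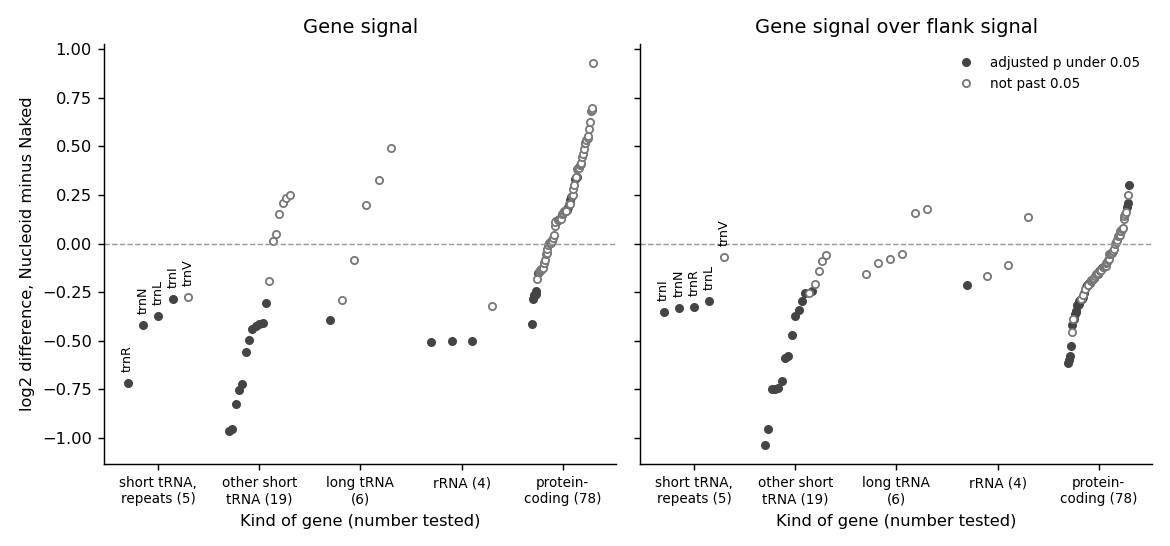
Log2 differences, Nucleoid minus Naked, of all 112 plastid genes by kind, for the gene signal and for the gene signal over flank signal; filled points passed an adjusted p of 0.05. The 5 short repeat tRNA genes lie between -0.72 and -0.28 for signal and between -0.35 and -0.07 for the ratio, within the range of the other short tRNA genes, which reach -0.96 and -1.03.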

How the data were processed

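The authors deposited 1 table of whole-number counts of insertions at each position of the TAIR10 plastid genome, with 22 columns, 1 per library. The submitters' processing notes name Trim Galore 0.4.1, Bowtie2 2.2.8.9 and bedtools 2.25.0. Duplicate removal, any shift of read ends and the handling of reads that match both repeats are not given in the sources used here. Between 49.9% and 50.1% of repeat counts fell in the first copy, so the copies cannot be told apart and were summed (positions of the copies sum to 238649; r between mirrored counts 0.925, next best of 1301 sums tried 0.246).

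Gene names and limits are those of RefSeq's table for TAIR10.1, a differently named assembly, so no gene coordinates are printed, and no sequence was read. Signals, gene-to-flank ratios (200 bp flanks) and 50 bp windows were computed with a pseudocount of 1 and a minimum mean scaled count of 10, and fitted with limma 3.58.1 in R 4.3.3 over all genes or windows, with fraction as the only term. The fit of flank signal was added after the others were seen. Scripts were tested on simulated data. Alternatives covered scaling, pseudocount, low-count filter, flank width, window width, gene limits, repeat copies, depth, replicate numbers and left-out libraries. PCR duplicates, if kept, make counting error a lower limit. The members and lists were chosen with earlier results of these data known. Genes named besides the members were their neighbours, the long repeat tRNA genes, the 3 genes most like each member and the ends of each list.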

Additional observations from a re-analysis of the deposited data

Results flagged for a closer look

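In 3 of 10 groups tested (signal and log2 gene-to-flank ratio of 5 genes over the 10 Nucleoid libraries), 1 library lay far from the rest by Dixon's criterion, where chance gives about 1 in 20, or 0.5 of 10. The groups share the same libraries, and each ratio contains its gene's signal, so they are not separate tests. The library that lay far was Nucleoid replicate 11 each time, the shallowest of the fraction with 202725 counts. Its trnI signal was 165, against 139 in the next library, and its trnI log2 gene-to-flank ratio was 0.50, against 0.21. Its trnV signal was 240, against 183 in the next library. Without this library the trnV signal difference passed the threshold (adjusted p = 0.0279). The part of depth in these values was not tested.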

How the results depend on the processing

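Leaving out 1 library at a time gave 4 to 5 of the 5 genes lower by signal and 4 each time by gene-to-flank ratio. The replicate numbers were not taken as pairs: over 10 same-numbered pairs r ran from -0.0641 to 0.716, 7 exceeded 0.1, and 1 library correlated best with its own number. With replicate number as a block, 5 of 5 genes were lower by signal (33 of 112 genes called, against 38) and 4 by ratio (59 against 49). The block changed 1 call among the 5 genes, that of the trnV signal (-0.24, adjusted p = 0.00987). The trnV signal passed also with the first repeat copy alone (adjusted p = 0.0166) and with voom weights on counts (adjusted p = 0.0435). It was smaller and did not pass with depth in the model (-0.14, adjusted p = 0.428) or in deep libraries (-0.13, adjusted p = 0.203). With the first copy alone trnN no longer passed by signal (-0.35, adjusted p = 0.0793) or ratio (-0.23, adjusted p = 0.0988). For the trnR ratio the deep libraries gave -0.23 (adjusted p = 0.0572), and for the trnI signal -0.15 (adjusted p = 0.0733). The trnV ratio turned to 0.02 with 100 bp flanks. The pair trnL and trnN, at 0.05, turned to -0.05 in deep libraries and -0.01 without Naked replicates 9, 10 and 11. Pairs past the threshold numbered 0 in deep libraries, against 5. Neighbours in the order of levels that differed numbered 6 with gene limits extended by 5 bp, against 4. By flank signal 1 gene, trnR, was lower. The alternatives for flank signal were chosen after seeing the data, and they gave 0 of the 5 with depth and 0 in deep libraries, where 0 of all 112 genes passed in limma (22 at an unadjusted p under 0.05 in each), against 38 (14 without Naked replicates 9, 10 and 11). They gave 2 of the 5 with the block (trnV -0.19, adjusted p = 0.0143), and 1 to 2 with single libraries left out. The trnL flank difference turned to 0.03 in deep libraries and 0.0 without Naked replicates 9, 10 and 11, and that of trnN to 0.02 and 0.01. Lower windows near the genes numbered 9 of 29 with 100 bp windows, 10 of 54 with depth in the model and 4 of 54 in deep libraries, against 17 of 54. The count of all genes past the threshold by signal was 38, 20 with depth and 17 in deep libraries. By ratio it was 49, 25 with depth, 26 in deep libraries and 29 without Naked replicates 9, 10 and 11. For windows it was 688, 249 with depth, 158 in deep libraries 376 without Naked replicates 9, 10 and 11 and 289 with 100 bp windows. The causes were not tested. An edgeR alternative was not run. Deep libraries are those of more than 600000 counts.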
